A study of Mus musculus with 12 samples.

Results

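In leukemia cells of a mouse T-ALL (T-cell acute lymphoblastic leukemia), 8 genes were examined: the 3 E-protein genes Tcf3, Tcf4 and Tcf12, the 3 Id genes Id1, Id2 and Id3, and the HMG-box genes Tcf7 and Lef1. They are the rows of the deposited gene table whose Entrez identifier maps to these symbols, 8 of 27179 genes, and 8 of the 13134 genes that passed the filter on low counts. The cells came from ALL101, 1 primary leukemia of a mouse in which a Vav-driven tetracycline-off transactivator (Vav-tTA) switches on a hairpin RNA that silences Ikaros and is linked to GFP (TRE-GFP-shIkaros). Recipient mice carrying this leukemia received doxycycline for 3 days, which shuts the hairpin off (3 mice, spleen cells labelled GFPmid), or were untreated (3 mice, spleen cells labelled GFPhigh). All mice carry the same leukemia, so the hairpin transgene and the origin of the cells are shared by both groups, and the shut-off of the hairpin, the GFP level of the cells and doxycycline itself cannot be told apart. The labels do not give strain, sex or age. Each RNA was sequenced in 2 runs, and the counts of both runs were summed per mouse.

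E proteins are basic helix-loop-helix transcription factors that bind E-box DNA as dimers and drive early lymphocyte programmes, among them antigen receptor rearrangement and pre-T-cell receptor expression. Id proteins carry the helix-loop-helix without the basic region, so they pair with E proteins and keep them off DNA. In thymocytes the balance between them is set by receptor signals, with Id3 known as a target of signalling through Egr factors. Tcf7 and Lef1 encode related factors that bind DNA through an HMG box, recruit beta-catenin or Groucho/TLE corepressors, and are needed for T-lineage specification and the later choice between CD4 and CD8 fates.

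Of the 8 genes, 4 changed after doxycycline. Id3 and Tcf7 rose, Tcf4 and Id2 fell, and Tcf3, Tcf12, Id1 and Lef1 did not pass the test. Among all 13134 tested genes 50.0% changed, 24.8% higher and 25.2% lower (edgeR quasi-likelihood, adjusted p below 0.05), so 4 of 8 is the share of genes in general. The values of the groups did not overlap for 4 of the 8 genes (Tcf4, Id1, Id3 and Tcf7), against 61.2% of all tested genes (30.2% higher, 30.9% lower). By the size of the log2 fold change Tcf4 lay at percentile 94.1 of the tested genes and Id3 at percentile 90.6. Lef1 lay at percentile 5.43 and Tcf12 at percentile 14.9.

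Total counts ran from 33899095 to 44949303 in doxycycline mice and from 29904744 to 33063390 in untreated mice. A gene with no read could still be at 0.0667 to 0.10 CPM, the level of 3 counts. Levels are CPM, counts scaled to a common library size with TMM factors. Ikzf1, which the hairpin targets, ran from 1438 to 1523 CPM in doxycycline mice and from 150 to 159 CPM in untreated mice, the direction the labels state. The T-cell markers Cd3d, Cd3e, Cd3g, Cd247, Cd2, Cd5, Lck and Thy1 were present in every mouse and summed to 5306 to 5523 CPM in doxycycline mice and 4702 to 4740 CPM in untreated mice. The library name of untreated mouse 3 holds INJ where the other 5 have sort wording, and although the protocol gives cell sorting for all samples, it is not known whether its cells were sorted in the same way. Doxycycline mouse 2 differed from mice 1 and 3 of its group in genes such as Id1 and Rag2. That was seen in these same values, so a smaller p without this mouse is not separate evidence for such genes. Values without untreated mouse 3 or doxycycline mouse 2 are given where they change the call of 1 of the 8 genes or of a named gene of the related lists. In bulk samples fewer cells of a type and less RNA per cell cannot be told apart. Mice of a group share 1 leukemia, so p-values measure the spread between recipient mice.

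**Figure D1:**
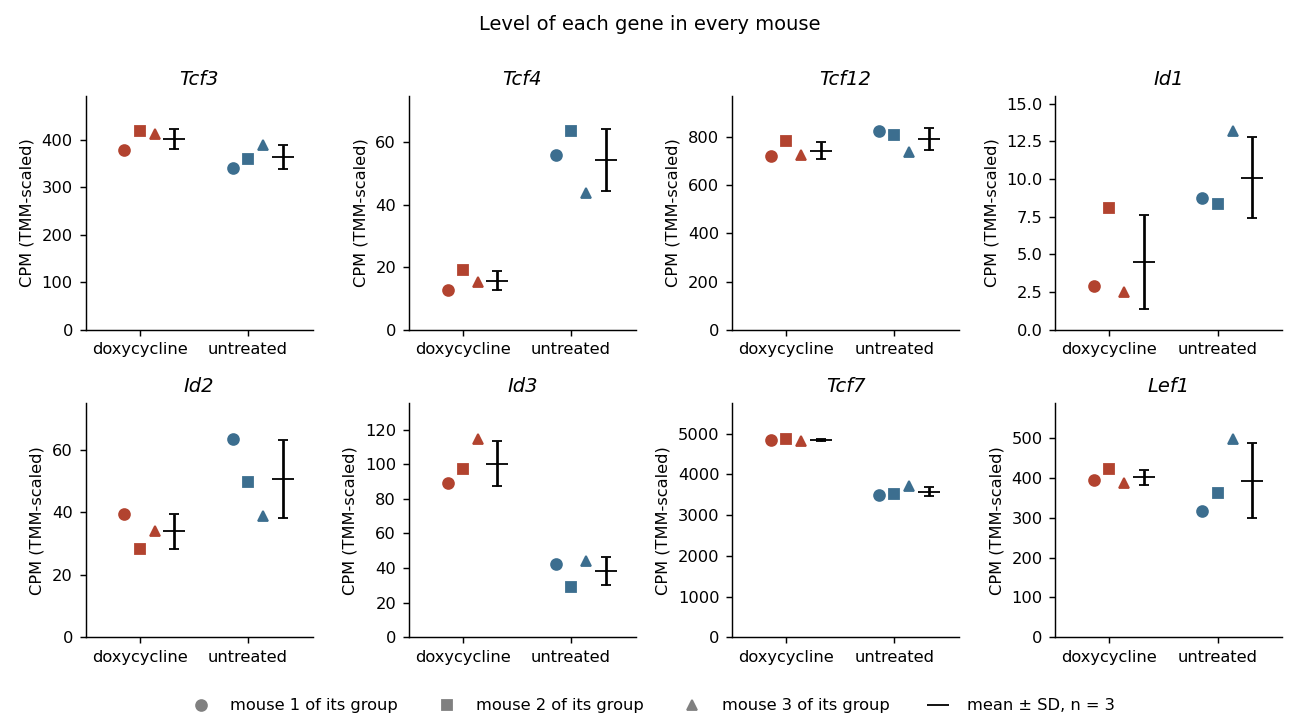
Level of each of the 8 genes in every mouse, in CPM on a linear axis from 0 (points are mice, marked by their number within the group, and black bars are mean ± SD, n = 3). Doxycycline mice stand left and untreated mice right. The groups are apart for Tcf4, Id1, Id3 and Tcf7, and they overlap for Tcf3, Tcf12, Id2 and Lef1.

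Among the E-protein genes, Tcf4 was the one that passed the test. Tcf4, best known as the E protein of plasmacytoid dendritic cells, stood at 12.8, 19.0 and 15.1 CPM in doxycycline mice 1, 2 and 3, against 56.0, 63.5 and 43.9 CPM in untreated mice 1, 2 and 3. Every doxycycline mouse was below every untreated mouse. The means were 15.6 ± 3.10 CPM after doxycycline and 54.5 ± 9.91 CPM without it (SD, n = 3 each), a difference of -1.80 ± 0.18 on the log2 scale (SE, edgeR adjusted p = 0.00031). The fall held in all 18 alternative analyses, where it ran from -1.67 to -2.09 log2 units, the last without both untreated mouse 3 and doxycycline mouse 2. Of the plasmacytoid dendritic cell markers, Siglech and Klk1 stayed under 0.1 CPM in every mouse. The list of 6, which also holds Ccr9, Ly6d, Pacsin1 and Spib, summed to 667 to 974 CPM in doxycycline mice and 233 to 307 CPM in untreated mice, most of it from Ccr9 and Ly6d, which thymocytes also express. Of its 4 tested members 2 rose and 1 fell, beside 24.8% and 25.2% of all tested genes. B-cell markers summed to 0.506 to 0.821 CPM in doxycycline mice and 0.302 to 0.663 CPM in untreated mice, with Pax5 at 0 in all 6.

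Tcf12, the E-protein gene with the highest level here, stood at 722, 784 and 727 CPM in doxycycline mice, against 825, 811 and 740 CPM in untreated mice. The groups overlapped, since doxycycline mouse 2 lay above untreated mouse 3. The log2 fold change was -0.09 ± 0.07 (edgeR adjusted p = 0.325), with a 95% interval from -0.25 to 0.07. Tcf3, whose splice forms are the founding E proteins, stood at 379, 418 and 412 CPM in doxycycline mice, against 342, 360.1 and 390.0 CPM in untreated mice. The groups again overlapped by 1 pair of mice, doxycycline mouse 1 and untreated mouse 3. The log2 fold change was 0.15 ± 0.07 (edgeR adjusted p = 0.133), with a 95% interval from -0.02 to 0.32.

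The Id genes did not move together. Id3, a helix-loop-helix inhibitor that receptor signals raise in thymocytes, stood at 88.9, 97.4 and 114.6 CPM in doxycycline mice, against 42.2, 28.9 and 43.8 CPM in untreated mice. The lowest doxycycline mouse was above the highest untreated mouse. The means were 100.3 ± 13.1 CPM after doxycycline and 38.3 ± 8.21 CPM without it (SD, n = 3 each), a 2.62-fold difference, or 1.39 ± 0.17 on the log2 scale (edgeR adjusted p = 0.00078). It rose in all 18 alternatives, by 1.22 to 1.53 log2 units.

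Id2, an inhibitor best known for its part in innate lymphoid and natural killer cells, moved the other way. It stood at 39.5, 28.2 and 34.1 CPM in doxycycline mice, against 63.5, 49.8 and 38.7 CPM in untreated mice. Doxycycline mouse 1 lay above untreated mouse 3, so the groups overlapped. The log2 fold change was -0.58 ± 0.20 (edgeR adjusted p = 0.0465), just inside the threshold. The call was lost without doxycycline mouse 2 (edgeR adjusted p = 0.132), doxycycline mouse 3 (0.103), untreated mouse 1 (0.104) or untreated mouse 2 (0.104), with no filter on low counts (0.0781) and on run 2 alone (0.0680). Without untreated mouse 3 the fall was -0.75 log2 units (edgeR adjusted p = 0.0088), and without that mouse and doxycycline mouse 2 together it was -0.62 (0.0043). Natural killer and innate lymphoid markers were near 0, with Ncr1, Klre1 and Klra8 at 0 in every doxycycline mouse and no more than 0.1 CPM in any untreated mouse, and the list of 6 summed to 2.00 to 2.49 CPM in doxycycline mice and 0.998 to 1.81 CPM in untreated mice.

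Id1, an inhibitor driven by bone morphogenetic protein signals in many tissues, was the lowest of the Id genes. It stood at 2.91, 8.08 and 2.48 CPM in doxycycline mice, against 8.72, 8.34 and 13.2 CPM in untreated mice. Doxycycline mouse 2 lay close to untreated mouse 2, while the other doxycycline mice were far below all untreated mice. The log2 fold change was -1.16 ± 0.49 (edgeR adjusted p = 0.0942), which did not pass. Without doxycycline mouse 2 it was -1.89 (edgeR adjusted p = 0.00071), without that mouse and untreated mouse 3 together it was -1.66 (9.1e-05), and with all mice it passed in DESeq2 (adjusted p = 0.0090) and limma-voom (adjusted p = 0.0280). Doxycycline mouse 2 was seen to differ in Id1 itself, so the fits without it are not separate evidence. Of the endothelial and stromal markers Cdh5 and Kdr peaked at 0.369 and 0.268 CPM in untreated mouse 1, Col3a1 stayed under 0.1 CPM in every mouse, and the list of 6 summed to 225 to 243 CPM in doxycycline mice and 230 to 312 CPM in untreated mice, nearly all from Pecam1 and Pdgfrb.

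The HMG-box pair was high in all mice. Tcf7, which encodes the T-cell factor of thymocytes, stood at 4840, 4871 and 4827 CPM in doxycycline mice, against 3497, 3521 and 3706 CPM in untreated mice. The doxycycline mice lay close together and all above the untreated mice. The means were 4846 ± 22.5 CPM after doxycycline and 3575 ± 114.6 CPM without it (SD, n = 3 each), a 1.36-fold difference, or 0.44 ± 0.06 on the log2 scale (edgeR adjusted p = 0.00081). It rose in all 18 alternatives, by 0.42 to 0.47 log2 units. Per kilobase of gene length, Tcf7 ranked 12 among the 13134 tested genes.

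Lef1, its relative that binds the same DNA motif, stood at 394, 424 and 389 CPM in doxycycline mice, against 318, 363 and 499 CPM in untreated mice. The untreated mice spanned the doxycycline mice on both sides. The log2 fold change was 0.03 ± 0.16 (edgeR adjusted p = 0.875), with a 95% interval from -0.34 to 0.40. Untreated mouse 3, the library named INJ, held the highest value, and without it the log2 fold change was 0.24 (edgeR adjusted p = 0.0555), whereas without untreated mouse 1 it was -0.10 and without untreated mouse 2 it was -0.03. Lef1 also shares 1208 exon bases with Gm43352, an antisense gene in GENCODE, and since the strand setting of the counting is not given, reads of the pair cannot be told apart. The other 7 genes share no exon base with another GENCODE gene.

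**Figure D2:**
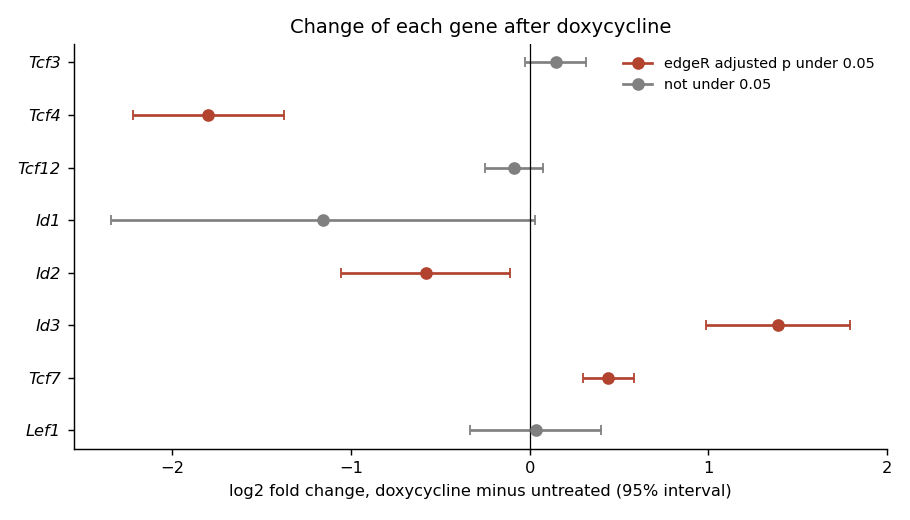
Log2 fold change of each of the 8 genes, doxycycline minus untreated, with its 95% interval from the edgeR fit (n = 3 mice each). Intervals for Tcf4, Id2, Id3 and Tcf7 lie off 0, and that of Id1 is the widest, from -2.34 to 0.03.

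Untreated mouse 3 was at an end of its group in all 8 genes. It had the highest Tcf3, Id1, Id3, Tcf7 and Lef1 and the lowest Tcf4, Tcf12 and Id2 of the untreated mice. In a group of 3 only the middle mouse is not at an end, and the share over all genes was not computed. For Id3 the margin was small, 43.8 CPM against 42.2 CPM in untreated mouse 1. Erythroid markers summed to 63.2 to 79.2 CPM in doxycycline mice and to 9.79, 5.30 and 44.8 CPM in untreated mice 1, 2 and 3. Of the 6 erythroid markers 2 rose after doxycycline and 0 fell. Myeloid markers summed to 60.9 to 79.8 CPM in doxycycline mice and 16.5 to 28.9 CPM in untreated mice. Of the 5 tested members 3 were higher and 1 lower, with a median log2 fold change of 1.78. Lyz2, at 3.41 CPM in doxycycline mice and 2.91 CPM in untreated mice, was a small part of the doxycycline sums. Of all tested genes 24.8% were higher and 25.2% lower. The part of the erythroid and myeloid markers in the results was not tested.

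Set per kilobase of gene length, which allows levels of different genes to be compared, the order after doxycycline was Tcf7 (mean 2165 CPM per kilobase), Lef1 (164), Tcf12 (147), Tcf3 (113.5), Id3 (105), Id2 (26.7), Id1 (4.93) and Tcf4 (2.04). Of the neighbours in that order Tcf3 and Id3 overlapped between mice, and the other neighbours did not. In untreated mice the order was Tcf7 (1597), Lef1 (159.9), Tcf12 (156), Tcf3 (102.6), Id3 (40.2), Id2 (39.8), Id1 (11.1) and Tcf4 (7.09). There Lef1 overlapped with Tcf12, and Id3 with Id2. The deposited length is 1 number per gene, so use of shorter or longer transcripts is not visible in these levels.

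The summed level of the 3 E-protein genes was much alike in all mice, at 251, 275 and 262 CPM per kilobase in doxycycline mice and 267, 270.0 and 262 CPM per kilobase in untreated mice. Tcf12 and Tcf3 made up nearly all of it, and Tcf4 gave 0.666% to 0.898% of the sum in doxycycline mice and 2.18% to 3.06% in untreated mice. The summed level of the 3 Id genes was 128, 133 and 149.8 CPM per kilobase in doxycycline mice and 104, 78.6 and 90.9 CPM per kilobase in untreated mice. Id3 made up 73.1%, 76.7% and 80.3% of the Id sum in doxycycline mice and 42.7%, 38.5% and 50.6% in untreated mice. Id2 made up 24.3%, 16.6% and 17.9% in doxycycline mice and 48.1%, 49.8% and 33.5% in untreated mice. Within a mouse, where library scaling cancels, the E-protein sum was 1.97, 2.07 and 1.75 times the Id sum in doxycycline mice and 2.57, 3.44 and 2.88 times in untreated mice. The groups did not overlap in this ratio, and neither did they in 61.2% of single tested genes. The E-protein sums overlapped between groups and mean Id1 and Id2 were lower after doxycycline, so the ratio mainly repeats the rise of Id3. No test was run on these sums because they are scores over chosen genes. Tcf7 was 13.5, 12.6 and 13.7 times Lef1 in doxycycline mice and 12.1, 10.7 and 8.16 times in untreated mice, per kilobase. Transcript levels do not give the amounts of the proteins.

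**Figure D3:**
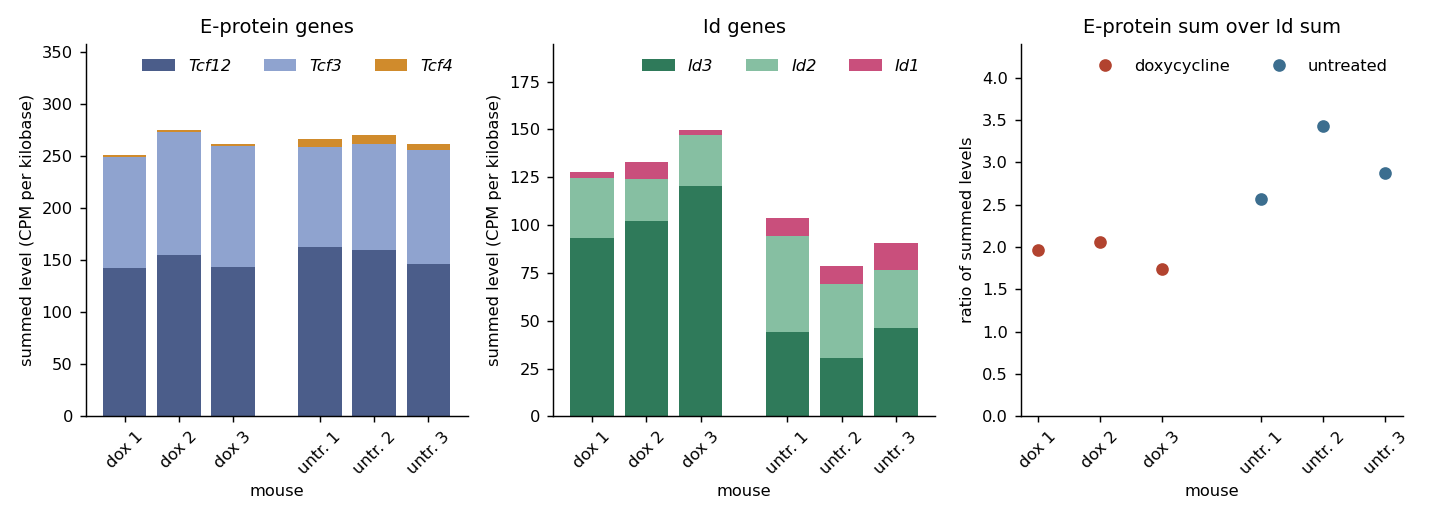
Stacked levels per kilobase of the E-protein genes (left) and Id genes (middle), and the ratio of the 2 sums (right), for each doxycycline mouse (dox) and untreated mouse (untr.). The E-protein sums lie between 251 and 275 CPM per kilobase, the Id3 part of the Id sum is larger in every doxycycline mouse, and the ratio is 1.75 to 2.07 in doxycycline mice and 2.57 to 3.44 in untreated mice.

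Because Id2 and Id3 are close relatives that were called in opposite directions, the sequences around their starts are shown. Each is the 300 bases from 250 before to 50 after the RefSeq start in GRCm38.p6 (the mm10 build), with E boxes (CANNTG, which reads the same on both strands) in capitals. Id3 lies on chromosome 4 and the window is chr4:136143572-136143871 on the plus strand. Id2 lies on chromosome 12 and the window is chr12:25096043-25096342 on the minus strand.
Id3: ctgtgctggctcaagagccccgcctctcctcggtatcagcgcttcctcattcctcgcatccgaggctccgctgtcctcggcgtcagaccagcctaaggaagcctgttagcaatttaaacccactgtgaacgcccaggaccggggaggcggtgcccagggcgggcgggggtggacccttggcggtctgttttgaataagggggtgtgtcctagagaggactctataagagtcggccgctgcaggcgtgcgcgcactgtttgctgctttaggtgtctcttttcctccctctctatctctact
Id2: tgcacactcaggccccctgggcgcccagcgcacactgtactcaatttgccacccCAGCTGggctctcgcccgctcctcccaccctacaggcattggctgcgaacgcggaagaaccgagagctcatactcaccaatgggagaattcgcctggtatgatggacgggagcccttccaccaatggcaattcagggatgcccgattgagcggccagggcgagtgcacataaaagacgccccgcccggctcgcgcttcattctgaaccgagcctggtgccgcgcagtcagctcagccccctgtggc
The Id2 window holds 1 E box, CAGCTG, whose first base is 196 bases before the start, and the Id3 window holds none. Of 32851 such windows over all genes 72.3% hold at least 1. Neither window holds CTTTGA (a Tcf/Lef motif, in 16.0% of windows), TGGGAA (an Ikaros motif, 25.6%) or GCGTGGGCG (an Egr motif, 0.612%) on either strand, and none of these motifs overlaps the E box. A match here is a string of letters and not a bound site, and the windows leave out distant elements.

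Among 20 partners and cofactors of E proteins, 11 passed the filter, of which 5 rose and 1 fell. Of all tested genes 24.8% rose and 25.2% fell. The median log2 fold change of the list was 0.46, against a median of -0.0037 over all tested genes. Lmo4, a LIM-only protein that joins LDB1 complexes, rose to 414 ± 97.2 CPM in doxycycline mice, against 137.5 ± 14.3 CPM in untreated mice (log2 fold change 1.59 ± 0.17, edgeR adjusted p = 0.00049). Ep300 and Kat2b are acetyltransferases that E-protein activation domains recruit. Ep300 rose by 0.46 ± 0.08 log2 units (edgeR adjusted p = 0.0022) and Kat2b by 0.66 ± 0.12 (0.0030). Ldb1 and Crebbp were the other members that rose, and Crebbp did not pass without untreated mouse 1 (edgeR adjusted p = 0.0553). Cbfa2t3, an ETO-family corepressor, fell to 57.6 ± 5.32 CPM in doxycycline mice, against 87.2 ± 8.64 CPM in untreated mice (edgeR adjusted p = 0.0016). Tal1, Lyl1 and Tal2, which encode bHLH oncogenes of human T-ALL, and the LIM-only oncogenes Lmo1 and Lmo2 were also on this list. Tal1 averaged 1.96 CPM in doxycycline mice and 1.43 CPM in untreated mice, and Lmo2 averaged 1.35 CPM in doxycycline mice and 0.758 CPM in untreated mice. Lyl1 had a log2 fold change of 0.58 ± 0.22, and none of the 3 passed (edgeR adjusted p = 0.200 for Tal1, 0.0679 for Lmo2 and 0.0522 for Lyl1). Lyl1 passed without doxycycline mouse 2 (edgeR adjusted p = 0.0360), without untreated mouse 1 (0.0328) and without doxycycline mouse 2 and untreated mouse 3 together (0.0466), and Lmo2 without doxycycline mouse 3 (0.0347) or untreated mouse 1 (0.0455). Lmo1 and Tal2 stayed under 0.1 CPM in every mouse.

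All 22 genes listed as E-protein targets of thymocytes were tested, with a median log2 fold change of 0.23. Of them 9 rose and 7 fell, beside 24.8% and 25.2% of all tested genes. The 4 with the smallest p were Hes1, a Notch target, Foxo1, a factor of quiescent T cells, Cdkn1a, a cyclin-dependent kinase inhibitor, and Cdk6, a kinase of G1 that E proteins restrain. Cdk6 fell to 30.8 ± 3.87 CPM in doxycycline mice, against 77.1 ± 11.1 CPM in untreated mice (edgeR adjusted p = 0.00020). Cdkn1a fell by 3.72 ± 0.29 log2 units and Foxo1 rose by 2.01 ± 0.15 (edgeR adjusted p = 0.00018 for Cdkn1a, 9.0e-05 for Foxo1). The values of Hes1, which fell, are set beside those of Tcf4 further on. Other members are named after their values were seen. Ptcra, which encodes the pre-T-cell receptor alpha chain and is activated by E proteins, stood at 17.8, 48.6 and 16.7 CPM in doxycycline mice, against 115.3, 115.4 and 145 CPM in untreated mice. It fell by 2.17 ± 0.48 log2 units (edgeR adjusted p = 0.0148), by 2.85 without doxycycline mouse 2 (2.0e-05), and did not pass without untreated mouse 2 (0.0532). Rag1 and Rag2 encode the recombinase pair that E proteins also drive. Rag1 stood at 323, 658 and 226 CPM in doxycycline mice, against 909, 899 and 913 CPM in untreated mice, and did not pass with all mice (log2 fold change -1.17 ± 0.41, edgeR adjusted p = 0.0632). Rag2, whose values are given further on, did not pass either (-0.91 ± 0.56, edgeR adjusted p = 0.233). Doxycycline mouse 2 had the highest level of all 3 genes in its group. Without it Rag1 fell by 1.71 ± 0.15 log2 units (edgeR adjusted p = 0.00027) and Rag2 by 1.70 ± 0.25 (0.0024), and 9 of the listed targets fell in place of 7. Without that mouse and untreated mouse 3 together both also passed (edgeR adjusted p = 0.00054 for Rag1, 0.0012 for Rag2). Doxycycline mouse 2 was seen to differ in such values, so the p-values without it are not separate evidence. Klf2 and S1pr1 are egress genes that E proteins hold down in thymocytes. Klf2 rose to 18.7 CPM in doxycycline mice, against 4.69 CPM in untreated mice (edgeR adjusted p = 0.0013), and S1pr1 to 4.02 CPM, against 0.295 CPM in untreated mice (0.0019).

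Of 29 genes of the beta-catenin route and Tcf7/Lef1 cofactors 26 were tested, with a median log2 fold change of 0.12. Among these 9 rose and 4 fell, beside 24.8% and 25.2% of all tested genes. Tle5, a short TLE protein without the corepressor repeat domain, rose to 551 ± 26.5 CPM in doxycycline mice, against 298 ± 22.2 CPM in untreated mice (log2 fold change 0.88 ± 0.08, edgeR adjusted p = 0.00011). Ctnnbip1, an inhibitor that keeps beta-catenin off Tcf factors, rose by 0.96 ± 0.10 log2 units (edgeR adjusted p = 0.00025). Jup, which encodes gamma-catenin, rose by 2.14 ± 0.29 log2 units and Nlk, a kinase that acts on Tcf and Lef proteins, by 0.46 ± 0.07 (edgeR adjusted p = 0.0022 and 0.0013). The 4 members that fell were Ctnnb1, which encodes beta-catenin, Lrp5, a Wnt co-receptor, Btrc, a ubiquitin ligase subunit, and Dvl2, a Wnt signal relay. Ctnnb1 fell by 0.30 ± 0.07 log2 units (edgeR adjusted p = 0.0073) and Lrp5 by 0.45 ± 0.09 (0.0033), both named after their values were seen. With doxycycline mouse 1, doxycycline mouse 2 or untreated mouse 2 left out, 2 members fell in place of 4. Btrc did not pass with any 1 mouse but untreated mouse 3 left out (edgeR adjusted p 0.0507 to 0.148), and Dvl2 did not pass without doxycycline mouse 1 or 2 or untreated mouse 2 or 3 (0.0504 to 0.0806).

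Of 21 genes listed as Tcf7/Lef1 targets 17 were tested, with a median log2 fold change of 0.25. Among these 7 rose and 4 fell, beside 24.8% and 25.2% of all tested genes. Prdm1, a repressor of effector lymphocytes, rose to 2.54 ± 0.867 CPM in doxycycline mice, against 0.336 ± 0.200 CPM in untreated mice (edgeR adjusted p = 0.00094). Cd4, the coreceptor gene, rose by 2.16 ± 0.26 log2 units, while Myc, a growth-promoting transcription factor gene, fell by 1.33 ± 0.15 (edgeR adjusted p = 0.0012 for Cd4, 0.00044 for Myc). Axin2, the usual readout of beta-catenin activity, averaged 62.2 CPM in doxycycline mice and 71.4 CPM in untreated mice and did not pass (log2 fold change -0.20 ± 0.11, edgeR adjusted p = 0.160), but without untreated mouse 1 it fell by 0.32 log2 units (0.0218). Lgr5 and Sp5 were at 0 in every mouse. Cd4, Gata3 and Il7r are among the genes in both target lists, so the lists are not separate evidence.

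Of 15 genes of routes that drive Id genes 12 were tested, with a median log2 fold change of 0.07. Among these 4 rose and 1 fell, beside 24.8% and 25.2% of all tested genes. Egr1 and Egr2 encode signal-induced factors upstream of Id3 in thymocytes. Egr1 rose to 221 ± 6.34 CPM in doxycycline mice, against 34.8 ± 10.8 CPM in untreated mice (edgeR adjusted p = 0.00023), and Egr2 to 4.24 ± 1.15 CPM, against 0.804 ± 0.119 CPM in untreated mice (0.00030). Tgfbr2, the type 2 receptor for TGF-beta, rose to 112 ± 10.7 CPM in doxycycline mice, against 58.6 ± 3.75 CPM in untreated mice (edgeR adjusted p = 0.00015), and Smad3 was the other member that rose. Acvr1, a type 1 receptor of bone morphogenetic proteins, fell to 2.36 ± 0.377 CPM in doxycycline mice, against 9.47 ± 0.365 CPM in untreated mice (edgeR adjusted p = 9.5e-05). With doxycycline mouse 1 or untreated mouse 3 left out, 2 members fell in place of 1, and 3 fell without doxycycline mouse 2 and untreated mouse 3 together.

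**Figure D4:**
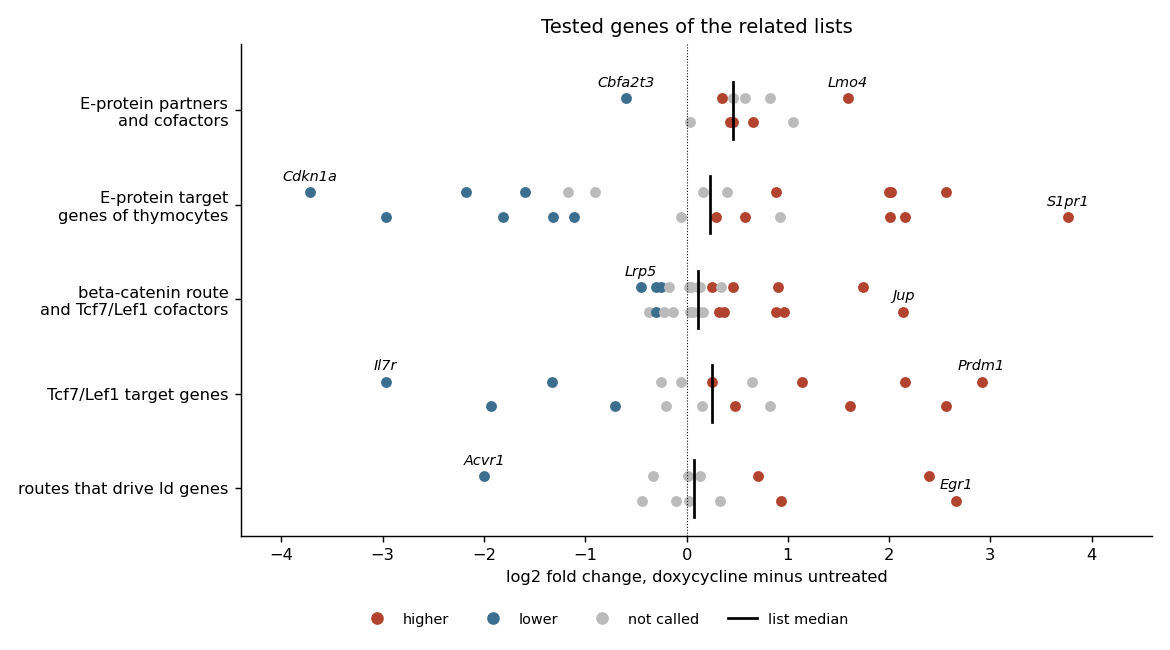
Log2 fold change, doxycycline minus untreated, of every tested gene of the 5 related lists (red higher, blue lower, grey not called, black line the list median), with the 2 extreme genes of each list named. Genes lie on both sides of 0 in each list, from Cdkn1a at -3.72 to S1pr1 at 3.77 among the E-protein targets.

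Likeness of pattern was measured as the root mean square difference between log2 CPM profiles over the 6 mice, each centred on its own mean. The search covered 12218 tested genes, leaving out those without a symbol or with a placeholder name such as Gm or Rik names. Nearest to Tcf4 were Arhgap23 (0.0892 log2 units), Hes1 (0.125) and Cdc42ep4 (0.142). Hes1 stood at 13.7, 20.5 and 17.3 CPM in doxycycline mice and 63.5, 60.8 and 56.1 CPM in untreated mice, much as Tcf4 did. Nearest to Id3 were Cdc14b (0.0802), Man2b2 (0.0839) and the variable gene Trav12-2 (0.110), which itself was only at 0.550 CPM in doxycycline mice and 0.185 CPM in untreated mice. Nearest to Id2 were Zfp449 (0.0760), Dmac2l (0.0981) and Ddc (0.0987). Id1 was nearest to Exoc3l4 (0.183), Rag2 (0.208) and Cox4i2 (0.229), and Rag2 stood at 7.97, 20.4 and 4.76 CPM in doxycycline mice, high in mouse 2 as Id1 was, and at 17.6, 20.1 and 24.7 CPM in untreated mice. Tcf7 was nearest to Ap1g2 (0.0147), Cmip (0.0197) and Retreg2 (0.0244). Profiles within 0.1 log2 units numbered 1 for Tcf4, 2 for Id3, 3 for Id2 and 0 for Id1, whose own profiles deviate from their means by 0.93, 0.74, 0.38 and 0.87 log2 units (root mean square). For Tcf7 they numbered 642 and for Lef1 23, with own deviations of 0.22 and 0.20, so the small distances to Tcf7 are shared by many genes. Lef1 was nearest to Airn, Snord100 and Cdk5rap2, and for Tcf3 and Tcf12 the nearest were Rfng and Lpin2. Rfng lay 0.0121 log2 units from Tcf3 and Lpin2 0.0178 from Tcf12. These are nearer than a gene at 1 level in all mice, which would lie at the own deviation of Tcf3 (0.10) or Tcf12 (0.076). Profiles within 0.1 log2 units numbered 935 for Tcf3 and 1339 for Tcf12, so likeness to them says little.

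**Figure D5:**
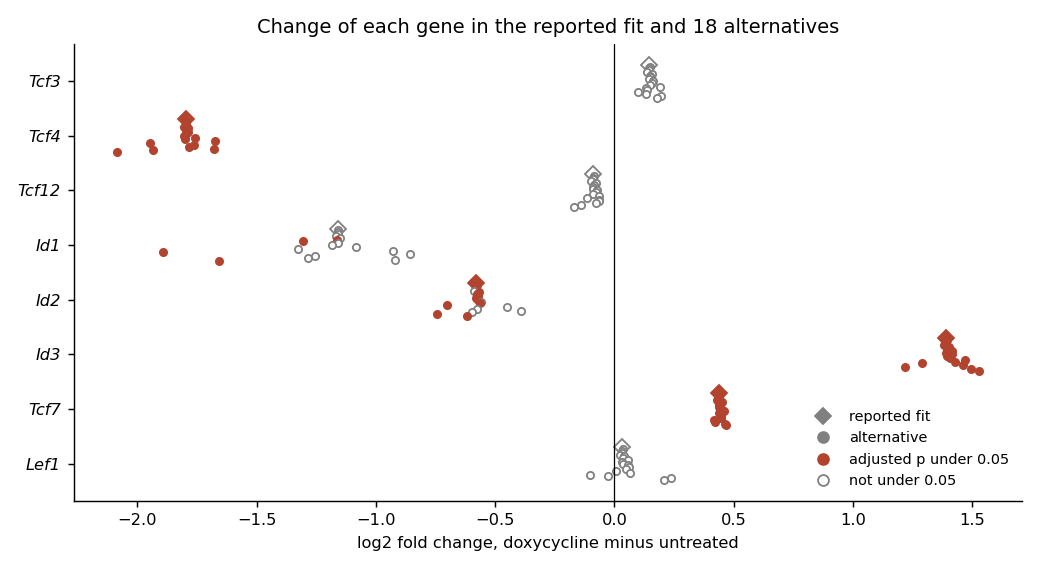
Log2 fold change of each gene in the reported fit (diamonds) and 18 alternative analyses (circles), filled red where the adjusted p was under 0.05. Tcf4, Id3 and Tcf7 are filled throughout, Tcf3, Tcf12 and Lef1 in none, and Id1 and Id2 are filled in some.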

How the data were processed

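RNA-seq was done on leukemia cells sorted from spleen, per the labels' protocols, with QIAGEN RNeasy plus mini RNA and standard Illumina libraries. The authors deposited raw counts per Entrez gene with a gene length. CASAVA 1.8.1, featureCounts and mm10 are named in the submitters' processing notes. Of the aligner, gene annotation and strand setting nothing is said in the sources used here. The whole-series table equalled the 12 per-library tables. Symbols came from RefSeq (GRCm38) and GENCODE by Entrez identifier, for 93.1% of identifiers.

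Counts of 2 runs were summed per mouse, since runs differed no more than sampling (mean squared residual 1.01 to 1.04 per gene, against 9.70 to 76.1 between mice of a group). edgeR 4.0.16 (R 4.3.3) tested 13134 genes kept by filterByExpr, with TMM factors, robust quasi-likelihood F tests and Benjamini-Hochberg adjustment over all of them at 0.05. SE is the absolute log2 fold change over the square root of F. Intervals use the fit's degrees of freedom and cover the spread between mice. On simulated counts (13012 genes) the fit recovered 69 of 88 genes changed by 1 log2 unit and 105 of 111 changed by 2, with 14 false calls. Far fewer genes were changed there than the 50.0% called in the data, and changes below 1 log2 unit were not simulated. These rates therefore do not carry over to the reported calls. With 3 against 3 mice no exact permutation test goes below 0.1, so none was run.

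The 8 genes and the lists were chosen with earlier results of these data known. Named were the 8 genes, Ikzf1, the called genes of each list with the smallest p, up to 4, and the 3 nearest profiles (log2 CPM, prior count 2), besides those said to be chosen later. Some genes that the rule names are not reported here. Alternatives were RLE, upper-quartile or no scaling factors, DESeq2 1.42.0, limma-voom (limma 3.58.1), no low-count filter, genes above 1 CPM in at least 3 mice, non-robust dispersions, run 1 or run 2 by itself, a replicate block, and leaving out mice.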

Additional observations from a re-analysis of the deposited data

How the results depend on the processing

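Across 18 alternatives Tcf4 stayed lower and Id3 and Tcf7 stayed higher past the threshold, and Tcf3 and Tcf12 kept their direction without passing in any. Id2 lost its call with no filter (log2 fold change -0.59) and on run 2 alone (-0.56), where 1 of the 8 genes was lower in place of 2. Leaving out 1 mouse at a time moved Id2 between -0.75 and -0.39 (edgeR adjusted p 0.0088 to 0.132) and the number of lower genes between 1 and 2. Id1 passed with DESeq2 (-1.16), with limma-voom (-1.30) and without untreated mouse 3 and doxycycline mouse 2 together (-1.66), and ran from -1.89 to -0.86 with 1 mouse left out, passing only without doxycycline mouse 2. Lef1 ran from -0.10 to 0.24 with 1 mouse left out, and was negative without untreated mouse 1 (-0.10) or 2 (-0.03). The number of genes called among all tested ran from 4869 to 6281 with 1 mouse left out. The cause of these differences was not tested. Same-numbered mice did not clearly deviate together (Pearson r over genes 0.16, -0.01 and -0.10, against -0.19 to 0.17 for mice of different numbers). With 3 mice per group this cannot settle whether the numbers pair mice, which the labels do not state. With the replicate block 6259 genes were called, the 8 genes kept their calls (Id2 -0.57, edgeR adjusted p = 0.0175), and 3 genes in place of 1 fell among the routes that drive Id genes. At 99 to 396 counts per mouse Id1 is the least deeply counted of the 8, and its 2 runs differed by up to 0.29 log2 units.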
